A study of Rattus norvegicus with 12 samples.

Results

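The pancreas of diabetic rats treated with sodium tungstate (DT) was compared to the pancreas of healthy untreated rats (HU), to find the genes that still differed from the healthy level after treatment and those that differed from it in treated animals alone. This comparison used 6 of the 12 Affymetrix RAE230-A rat arrays of the study, 3 of DT and 3 of HU animals, chosen by their labels. The other arrays were of diabetic untreated (DU) and healthy treated (HT) animals, 3 each. All groups were adult male Wistar rats, and diabetes was induced by an intraperitoneal injection of streptozotocin, a toxin taken up by beta cells. The DT animals were given sodium tungstate in their drinking water. According to the labels it was 0.7 g/L for a week and then 2 g/L for another 4 to 5 weeks (the methods name only the latter concentration). The labels state that the glycemia of DT animals had come down near the normal range, whereas the paper describes it as partially restored. HU animals received deionized water without tungstate and were kept for 5 to 6 weeks. Each array held RNA of the whole pancreas pooled from 3 rats, so that a p-value measures the spread between pools and not between rats.

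The pancreas is mostly made of acinar cells, which synthesize and export digestive enzymes, while the islets, where beta cells make insulin, are a small part of it. Beta cells store insulin in granules, in which prohormones are cut and trimmed by processing enzymes that other endocrine cells share. Streptozotocin enters through the glucose transporter Glut2 and kills beta cells, and tungstate is an oral agent that lowers blood glucose in diabetic rodents. In RNA of whole pancreas, fewer cells of a type and less RNA per cell cannot be told apart.

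The values were log2 intensities, and array medians lay between 6.63 and 6.70. The correlation of 2 arrays of the same group was between 0.984 and 0.9937, and that of a DT with an HU array between 0.9784 and 0.9862. No scan day held both a DT and an HU array. DT1 and DT2 shared their day with DU1, DT3 with HT3, and HU3 with HT1 and HT2. HU3, DT1 and DT2 came from chip lot 1, HU1 and HU2 from lot 2 and DT3 from lot 3. A chip lot block or a scan day block is a fit that compares arrays within lots or days. The log2 fold change under a scan day block was therefore, by construction, DT3 minus HT3 plus the mean of HT1 and HT2 minus HU3, and DT1 and DT2 did not enter it. It holds 1 DT and 1 HU array, each assumed to vary like the arrays of the other groups, so its p-values are given as values and support no call. DT3 stood apart from DT1 and DT2 in islet, matrix and leukocyte genes, as given beside each result. The markers of acinar cells were the brightest on these arrays, with a mean over 8 genes of 12.98 to 13.05 in HU and 12.73 to 12.85 in DT animals. Of these 8 genes only the amylase gene Amy1 was called in DT vs. HU (log2 fold change -2.12). The others ran from -0.18 to 0.38, so the lower mean in DT animals is not shared by the markers.

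Ins2 had the largest fall of all probe sets in DT animals and Ins1 was lower too, and the promoters of both insulin genes hold the letters that beta cell transcription factors are known to read. The rat has 2 insulin genes, and the stretches from 250 bases before to 50 bases after the start of each are shown because their transcripts were lower together. They are followed by the same stretch of Scg2, which encodes secretogranin II, a granule protein that was also lower (RefSeq sequences, build GRCr8). Capitals mark an A box core (TAATTA), an E box (GCCATCTG) and a cyclic AMP response element (TGACGTCA), each searched on both strands.
Ins1, chr1:261185869-261186168, plus strand: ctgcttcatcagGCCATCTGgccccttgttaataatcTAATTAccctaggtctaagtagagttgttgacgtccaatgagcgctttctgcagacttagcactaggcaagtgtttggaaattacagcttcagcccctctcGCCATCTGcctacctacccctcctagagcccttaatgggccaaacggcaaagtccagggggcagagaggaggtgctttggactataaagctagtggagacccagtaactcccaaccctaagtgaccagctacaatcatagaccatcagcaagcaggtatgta
Ins2, chr1:207273756-207274055, minus strand: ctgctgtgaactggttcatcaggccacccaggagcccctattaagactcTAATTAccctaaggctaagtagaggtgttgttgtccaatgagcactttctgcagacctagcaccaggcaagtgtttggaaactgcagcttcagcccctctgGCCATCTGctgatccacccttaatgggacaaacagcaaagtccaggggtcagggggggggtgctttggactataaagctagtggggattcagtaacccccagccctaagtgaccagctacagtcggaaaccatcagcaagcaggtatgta
Scg2, chr9:88256817-88257116, minus strand: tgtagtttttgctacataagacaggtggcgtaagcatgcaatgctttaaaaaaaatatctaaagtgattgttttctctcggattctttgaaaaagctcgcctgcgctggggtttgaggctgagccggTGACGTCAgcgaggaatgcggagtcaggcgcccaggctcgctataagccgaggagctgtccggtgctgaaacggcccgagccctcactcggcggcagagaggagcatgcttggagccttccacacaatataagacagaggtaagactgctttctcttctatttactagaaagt
Of the 9 beta cell and granule genes called lower in DT animals below, only Ins1 and Ins2 held TAATTA or GCCATCTG in this stretch, and only Scg2 held TGACGTCA. Among 27457 genes with a promoter of the same length, 5.83% held TAATTA, 1.34% held GCCATCTG and 2.00% held TGACGTCA. A match is a description of the letters and not a measured binding site.

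Between DT and HU animals, 209 of 15866 probe sets differed at an adjusted p under 0.05 (1.32%), and these carried the symbols of 179 genes. In DT animals 120 probe sets were higher (0.756% of those tested) and 89 were lower (0.561%), with a median change of 1.51-fold and changes over 2-fold in 18 higher and 14 lower ones. In all of the 209 the DT and HU arrays did not overlap, as was the case for 3342 of all probe sets tested (21.1%). In the chip lot 1 arrays alone (DT1 and DT2 minus HU3) the direction of all 209 was fixed in advance by this lack of overlap. All 209 kept their direction under a chip lot block and 207 under a scan day block, fits that reuse the arrays behind the calls. With the chip lot as a block 74 probe sets were called, 60 of them among the 209, and under a scan day block 3 were called, those of Ins2, Dusp6 and C2cd4b, all among the 209. The count was 89 without DT1, 73 without HU1, 75 without HU2, 75 without HU3, 135 without DU1 and 126 without DU2, the DU arrays entering through the shared spread. In each of the fits that left out a DT or HU array 44 of the 209 remained called, 22 higher and 22 lower.

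The 209 probe sets were sorted by their calls in DU vs. HU (507 called, 3.20%) and DT vs. DU (177 called, 1.12%). For 87, of 75 genes, the difference was also called in DU vs. HU in the same direction, 39 higher and 48 lower, and these remained different after treatment. For 35, of 31 genes, the difference was called in DT vs. DU in the same direction and not in DU vs. HU, 29 higher and 6 lower, and these were newly different. A further 86, of 74 genes, 51 higher and 35 lower, were called in DT vs. HU alone, and 1, of Anpep, was called in opposite directions in DT and DU animals. The comparisons share arrays, so these counts describe the calls and are not independent of each other. Of the 507 probe sets called in DU vs. HU, 419 were not called in DT vs. HU. Of the 87 that remained different, 6 were also called in DT vs. DU, in each case toward the level of HU animals, among them Ins2 and Amy1.

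**Figure D1:**
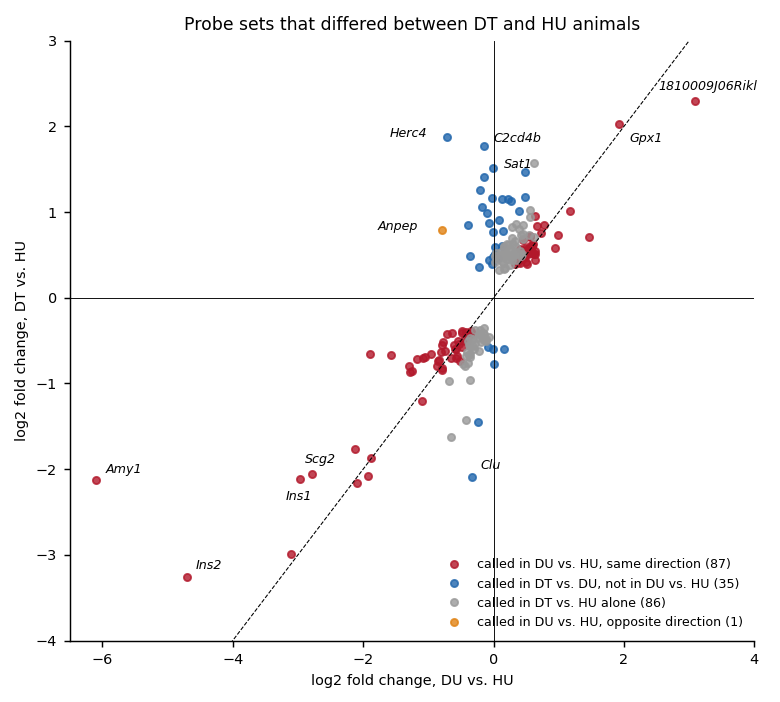
Log2 fold changes of the 209 probe sets called in DT vs. HU, with DU vs. HU on the horizontal and DT vs. HU on the vertical axis, which share the HU arrays. Colours give the 4 classes (87, 35, 86 and 1 probe sets) and the dashed line marks equal differences. Ins2 and Amy1 lie above that line on the left. The newly different probe sets were, by the sorting rule, not called in DU vs. HU, so their place along the horizontal axis is no separate result.

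The transcripts of both insulins, of amylin and of Glut2 were lower in DT than in HU animals. Counted by gene, with its brightest probe set, 164 of 10411 genes were called in DT vs. HU (1.58%, 96 higher and 68 lower), the share against which the lists of genes stand. Of 20 measured beta cell genes these 4 were called lower and none higher, with 3 lower under a chip lot block and 1 under a scan day block, and the median log2 fold change was -0.16 against -0.01 over all genes measured. Ins2, which encodes insulin 2, was at 13.26, 13.43 and 13.32 on the log2 scale in HU1, HU2 and HU3, at 9.58, 9.56 and 11.11 in DT1, DT2 and DT3, and at 8.84, 8.79 and 8.26 in the DU arrays. All DT arrays lay below all HU arrays and above all DU arrays, and DT3 was the highest of the DT arrays. The difference between DT and HU was 9.54-fold (-3.25 on the log2 scale with a standard error of 0.31, adjusted p = 0.000241), and it passed under a chip lot block (-3.21, adjusted p = 0.00428). Under a scan day block it was -2.11 (adjusted p = 0.00644). Between DT and DU animals Ins2 was called too, at 1.45 on the log2 scale (adjusted p = 0.0387).

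Ins1, which encodes insulin 1, was at 13.68, 13.73 and 13.79 in HU and at 11.43, 11.06 and 12.36 in DT arrays. Its groups did not overlap, and DT3 again came closest to the HU arrays. It was 4.32-fold lower in DT animals (-2.11 on the log2 scale, adjusted p = 0.00113, and 0.0170 under a chip lot block, but -1.25 and 0.286 under a scan day block), while its difference between DT and DU of 0.86 did not pass (adjusted p = 0.160). The insulin genes are near-identical in sequence, so part of each signal may come from the other. Iapp, which encodes amylin, the peptide that beta cells secrete with insulin, was at 10.61, 11.02 and 10.85 in HU and at 8.78, 8.52 and 9.89 in DT arrays, without overlap. It was 3.404-fold lower (-1.77 on the log2 scale, adjusted p = 0.00768), which did not pass under a chip lot block (-1.61, adjusted p = 0.0551) and was -0.44 under a scan day block (adjusted p = 0.789). Slc2a2, which encodes Glut2, was at 7.28, 7.63 and 7.82 in HU and at 5.88, 5.42 and 5.84 in DT arrays. It was the one of the 4 called genes for which DT3 did not stand above the other DT arrays, and its difference of 3.65-fold (adjusted p = 0.000172, and 0.00229 under a chip lot block) was close to that between DU and HU animals (-1.87 and -1.88 on the log2 scale). Pdx1, which encodes a transcription factor of beta cells and of the developing pancreas, was at 7.26 to 7.41 in HU and 7.05 to 7.15 in DT arrays, and its log2 fold change of -0.23 did not pass (adjusted p = 0.252).

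Of 29 measured genes of the hormone granule and of prohormone processing, 5 were called lower, none was called higher and the others did not pass. The 5 calls became 2 under a chip lot block and 0 under a scan day block. The median log2 fold change was -0.13, and 4 of the 29 were above 0. Cpe, which encodes carboxypeptidase E, the enzyme that trims cut prohormones, was at 8.82, 8.91 and 9.15 in HU and at 6.62, 6.36 and 7.65 in DT arrays. Its levels did not overlap and were 4.24-fold lower in DT animals (-2.08 on the log2 scale, adjusted p = 0.00295, but -0.68 and 0.536 under a scan day block). Scg2 was at 7.42, 7.54 and 7.92 in HU and at 5.21, 5.06 and 6.42 in DT arrays. Its DT3 value lay more than 1 log2 unit above DT1 and DT2 and still below every HU array, and the difference was 4.17-fold (-2.06 on the log2 scale, adjusted p = 0.00827). It did not pass under a chip lot block (-1.86, adjusted p = 0.0982) or a scan day block (-0.46, adjusted p = 0.674). Pcsk2, which encodes the prohormone convertase 2, was 1.80-fold lower (adjusted p = 0.00223). Resp18, which encodes an endocrine secretory protein, was 2.297-fold lower (-1.20 on the log2 scale, adjusted p = 0.0149, but -0.50 and 0.703 under a scan day block), a call lost without DT1 (0.0600), HU2 (0.0645) or HU3 (0.0641). The fifth gene, Pcsk1n, which encodes an inhibitor of a prohormone convertase and was named after its values were seen, was 1.67-fold lower (adjusted p = 0.0314). The call of Pcsk1n was lost at least without DT1, DT2, HU2 or HU3. All 5 were also called lower in DU vs. HU. Left out in turn, single DT and HU arrays gave 3 to 6 calls in this list, 3 without DT1, HU2 or HU3.

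The hormones of the other islet cells did not pass the test. Of 16 measured genes of alpha, delta and PP cells none was called, and their median was -0.05. Gcg, which encodes glucagon, was at 8.43, 8.54 and 8.65 in HU and at 8.36, 7.79 and 9.32 in DT arrays, and its log2 fold change was -0.05 (adjusted p = 0.951). Sst, which encodes somatostatin, was at 8.87 to 8.92 in HU and at 8.98, 8.68 and 10.10 in DT arrays (log2 fold change 0.36, adjusted p = 0.538). Ppy, which encodes pancreatic polypeptide, was at 9.27, 8.91 and 9.72 in HU and at 9.55, 8.58 and 10.15 in DT arrays (0.13, adjusted p = 0.864). In each of these 3 genes DT3 was the highest and DT2 the lowest DT array, and both lay outside the range of the HU arrays. DT3 was also the highest DT array for Ins1 and Ins2. Under a scan day block, in which DT3 is the DT array, the log2 fold change was 1.15 for Gcg, 1.63 for Sst and 0.43 for Ppy.

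The mean of Gcg, Sst and Ppy was 8.86, 8.79 and 9.09 in HU arrays and 8.96, 8.35 and 9.86 in DT arrays, and was then subtracted from the beta cell genes of the same array, a measure chosen after the values were seen. Ins2 stood above this mean by 4.40, 4.64 and 4.22 in HU and by 0.61, 1.21 and 1.253 in DT arrays, and below it by 0.26, 0.45 and 0.99 in DU arrays. For Ins2 DT3 no longer stood apart from DT2 on this scale, and the difference between DT and HU was -3.399. For Ins1 the same difference was -2.26, with DT arrays at 2.47, 2.71 and 2.50. For Iapp it was -1.91, for Slc2a2 -2.01, for Cpe -2.23 and for Scg2 -2.20. For Slc2a2 the scale set DT3 apart instead, with DT arrays at -3.09, -2.93 and -4.02. The measure was chosen with the groups known to differ and carries no test.

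**Figure D2:**
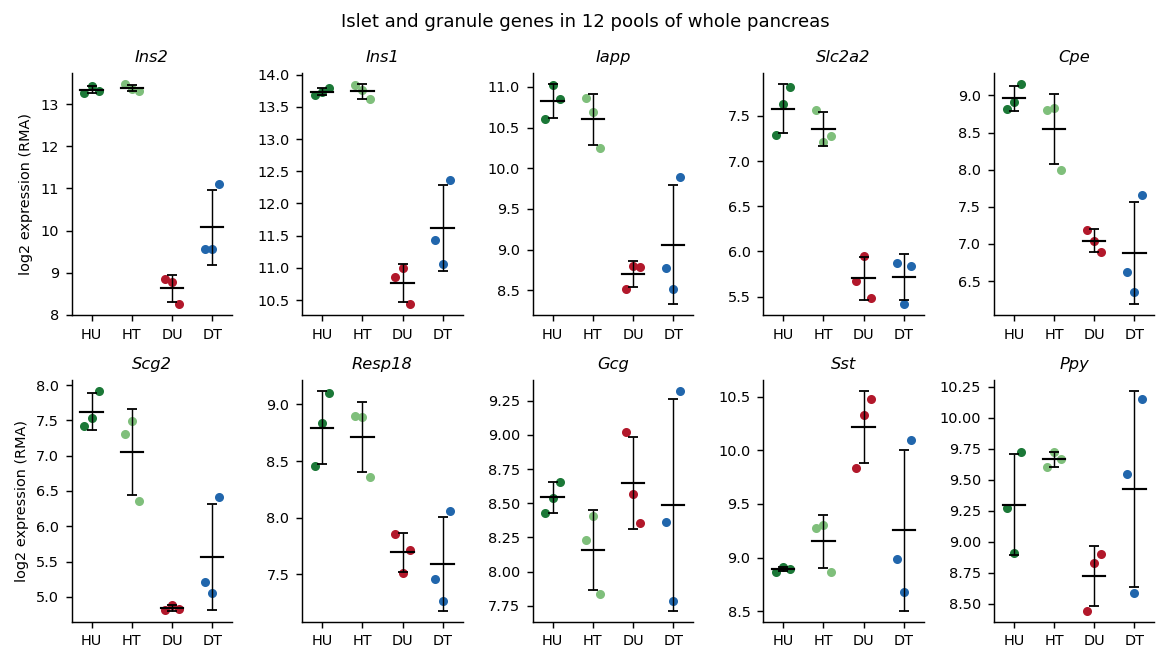
Log2 expression of 10 islet genes in each of the 12 pools, with the mean and SD of each group (n = 3 pools). The DT points of Ins2, Ins1, Iapp, Slc2a2, Cpe, Scg2 and Resp18 lie below all HU points, and DT3, the rightmost DT point, is the highest of the DT arrays except for Slc2a2. Gcg, Sst and Ppy overlap between DT and HU.

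Among digestive enzymes, 2 of 27 measured genes were called higher and 1 lower, with a median of -0.01, so most of these genes did not pass the test. The acinar markers Pnlip, Cpa1, Ctrb1 and Prss1 lay at 14 to 14.48 in DT and HU arrays. The highest value of any probe set on these arrays was 14.45 to 14.525. Whether differences so near the top of the scale are understated was not tested. Amy1, an amylase gene, was at 10.36, 10.47 and 10.72 in HU, at 8.39, 8.44 and 8.35 in DT and at 4.45, 4.41 and 4.41 in DU arrays. The 3 groups were well apart, and DT lay between DU and HU. It was 4.36-fold lower in DT than in HU animals (-2.12 on the log2 scale with a standard error of 0.25, adjusted p = 0.00116, and 0.0118 under a chip lot block, but -1.12 and 0.175 under a scan day block). Amy2a3, which encodes pancreatic amylase, was at 13.20, 13.10 and 13.07 in HU and at 13.17, 12.98 and 12.70 in DT arrays, and its log2 fold change of -0.18 (standard error 0.42) did not pass (adjusted p = 0.868). DU arrays were at 8.59, 6.45 and 8.78, below both groups. The amylase genes are close in sequence, so their probe sets may share signal.

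The gene with the largest rise in DT vs. HU was 1810009J06Rikl, a trypsin-like protease also listed as Try4. It was at 10.35, 11.45 and 10.62 in HU, at 13.52, 12.85 and 12.95 in DT and at 13.85, 13.84 and 13.99 in DU arrays. DT arrays lay above all HU arrays and below all DU arrays, and the difference between DT and HU was 4.92-fold (adjusted p = 0.000481, and 0.00651 under a chip lot block), while DT vs. DU did not pass (adjusted p = 0.208). Prss2, a trypsinogen, was also higher, at 12.97, 13.19 and 12.93 in HU and 13.64, 13.55 and 13.52 in DT arrays (1.46-fold, adjusted p = 0.0233). This call was lost without DT1 (0.0798), HU1 (0.0886) or HU3 (0.0838). Trypsins are a family of close copies, so these probe sets may read more than 1 member. Of 15 regulators and receptors of acinar cells none was called. Anpep, which encodes aminopeptidase N, was at 9.35, 9.57 and 9.67 in HU and at 10.49, 10.26 and 10.20 in DT arrays, without overlap (1.73-fold higher, adjusted p = 0.0112), whereas its DU mean was 8.75.

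Clu, which encodes the secreted chaperone clusterin, was lower in DT than in both HU and DU animals. It was at 11.78, 11.82 and 11.90 in HU, at 9.45, 8.99 and 10.79 in DT and at 11.36, 11.65 and 11.49 in DU arrays. The DT arrays lay below all others and spread over nearly 2 log2 units, with DT3 nearest to HU. The difference was 4.25-fold in DT vs. HU (-2.09 on the log2 scale, adjusted p = 0.00589, and 0.0200 under a chip lot block, but -1.16 and 0.394 under a scan day block). A second probe set of Clu had a log2 fold change of -0.48 (adjusted p = 0.0699). Of 27 injury and regeneration genes Clu alone was called. Tspan8, which encodes a tetraspanin of epithelial membranes, was at 5.74, 5.45 and 5.51 in HU, at 7.15, 6.77 and 6.54 in DT and at 5.39, 5.39 and 5.31 in DU arrays. All DT arrays were above all others, by 2.38-fold over HU on average (adjusted p = 0.000460, and 0.00317 under a chip lot block). Clu and Tspan8 were the called ones of 23 duct cell genes, whose median was 0.01. Of the 4 duct cell markers, the 2 measured had a mean of 6.23 to 6.62 in HU and 6.43 to 6.79 in DT arrays, and their part in these differences was not tested.

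Polyamines are small charged molecules that bind nucleic acids and are needed for growth, and of 12 measured genes of their metabolism 2 were called higher and none lower. The median of 0.36 compares with -0.01 over all genes, but was 0.12 within chip lot 1 and 0.10 under a scan day block. Sat1 encodes the acetyltransferase that starts polyamine breakdown. It was at 6.49, 6.29 and 6.51 in HU, at 7.83, 7.89 and 8.12 in DT and at 6.47, 6.44 and 6.37 in DU arrays. DT arrays stood more than 1 log2 unit above all other arrays, 2.86-fold over HU (standard error 0.10 on the log2 scale, adjusted p = 1.8e-05), and the call held under a chip lot block (adjusted p = 0.000949) and without any DT or HU array (adjusted p up to 0.000239), but not under a scan day block (1.39, adjusted p = 0.169). Odc1, which encodes ornithine decarboxylase, the first enzyme of polyamine synthesis, was at 10.26 to 10.50 in HU and at 10.88 to 11.04 in DT arrays (1.48-fold, adjusted p = 0.0301). It did not pass without DT1, DT3 or any of the HU arrays (adjusted p of 0.0563 to 0.113).

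**Figure D3:**
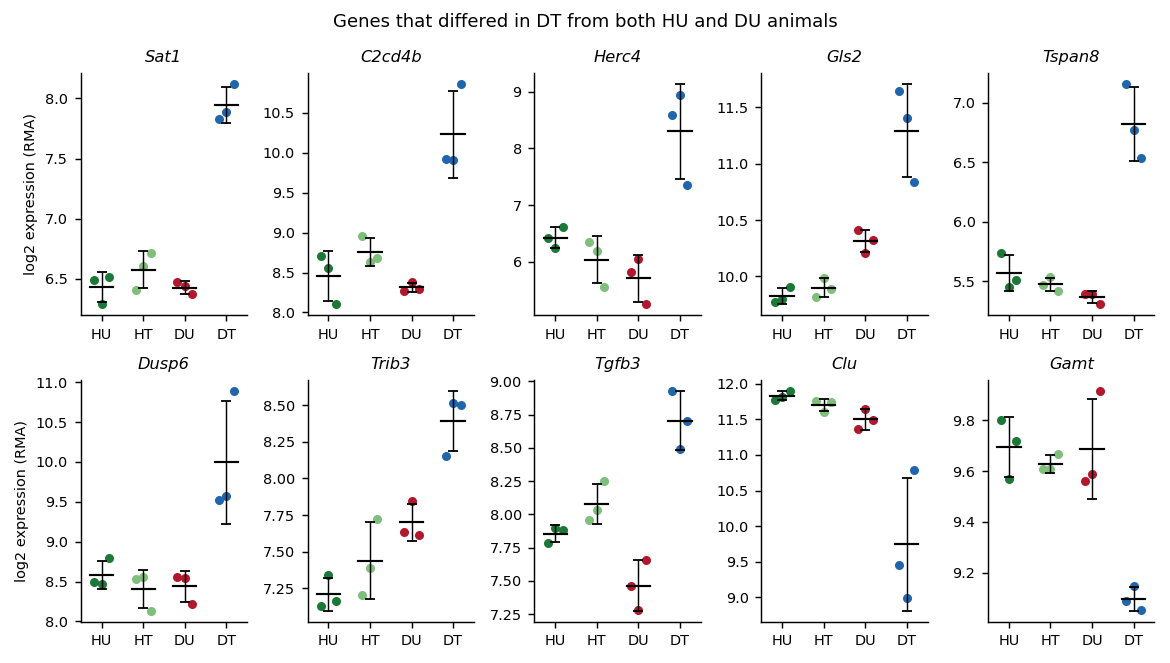
Log2 expression of 10 newly different genes in the 12 pools, with the mean and SD of each group (n = 3 pools). DT points of Sat1, C2cd4b, Herc4, Gls2, Tspan8, Dusp6, Trib3 and Tgfb3 lie above, and those of Clu and Gamt below, all points of the other groups.

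Beside Sat1, the newly different genes with the largest rises were Herc4, C2cd4b, Gls2 and Dusp6. Herc4, which encodes a ubiquitin ligase, was at 6.42, 6.25 and 6.61 in HU and at 8.59, 8.94 and 7.36 in DT arrays. DT3 was more than 1 log2 unit below DT1 and DT2 and still above every HU array, and the difference was 3.66-fold (adjusted p = 0.0166, and 0.00101 under a chip lot block). It was lost without DT1 (0.0665), HU1 (0.0602) or HU2 (0.0723). C2cd4b, which encodes a nuclear protein with a C2 domain, was at 8.71, 8.56 and 8.11 in HU and at 9.93, 9.91 and 10.86 in DT arrays. It was 3.42-fold higher (adjusted p = 0.00151), and the call held under a chip lot block (adjusted p = 0.00229). DT3 was its highest array, and the log2 fold change of 1.77 was 2.87 under a scan day block (adjusted p = 0.00399). Gls2, which encodes a glutaminase, the enzyme that frees ammonia from glutamine, was at 9.77, 9.80 and 9.90 in HU, 11.64, 11.40 and 10.84 in DT and 10.41, 10.21 and 10.32 in DU arrays. DT arrays were the highest and DU arrays lay between, and Gls2 was 2.76-fold higher in DT than in HU animals (adjusted p = 0.000460).

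Dusp6, whose product removes phosphate from Erk and which Erk itself induces, was at 8.49, 8.47 and 8.79 in HU and at 9.52, 9.57 and 10.89 in DT arrays. The groups did not overlap, and DT3 was the highest. It was 2.66-fold higher (1.41 on the log2 scale, adjusted p = 0.0272) and did not pass under a chip lot block (adjusted p = 0.139). Under a scan day block, with DT3 as the DT array, it was 2.51 (adjusted p = 0.00164). The call was lost without HU1 (0.0937), HU2 (0.100) or HU3 (0.0595). A second probe set passed as well (0.99, adjusted p = 0.0227) and another did not (0.99, adjusted p = 0.0928). Egr1, an immediate early transcription factor downstream of Erk, was at 7.58, 7.05 and 7.41 in HU and at 7.80, 8.56 and 8.41 in DT arrays (1.88-fold, adjusted p = 0.0275, lost without DT2, DT3, HU2 or HU3, at 0.0550 to 0.108). Of 32 Erk feedback and immediate early genes these 2 were called higher and none lower, and the median was 0.00. Errfi1, which encodes an inhibitor of the EGF receptor, was 2.97-fold higher in DT than in HU animals, from 7.82, 7.94 and 8.40 to 9.97, 9.55 and 9.34 (adjusted p = 0.0127), lost without DT1 (0.0522), HU1 (0.0590) or HU2 (0.0554). Its DU arrays, at 8.76, 9.21 and 8.07, overlapped with HU, and neither DU vs. HU nor DT vs. DU passed.

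Tgfb3, which encodes transforming growth factor beta 3, was at 7.78, 7.89 and 7.88 in HU, at 8.93, 8.49 and 8.70 in DT and at 7.46, 7.28 and 7.66 in DU arrays. DT was above and DU below HU in every array, by 1.80-fold for DT (adjusted p = 0.00490, and 0.0477 under a chip lot block), while DU vs. HU did not pass (adjusted p = 0.102). It was the called one of 55 genes of the TGF-beta, BMP and Wnt pathways. Smoc1, which encodes a matricellular protein that binds calcium, rose from 7.54, 7.74 and 7.74 in HU to 8.60, 8.82 and 9.06 in DT arrays (2.22-fold, adjusted p = 0.00120, and 0.00229 under a chip lot block). Tle6, a member of the Groucho family of corepressors, was 2.18-fold higher (adjusted p = 0.00223), Gnpnat1, an enzyme of UDP-N-acetylglucosamine synthesis, 2.08-fold (adjusted p = 0.0221, lost without DT2 or any HU array) and Slc25a35, a mitochondrial carrier, 2.24-fold (adjusted p = 0.0172, lost without DT1 or any HU array). Gamt, which encodes the last enzyme of creatine synthesis, was newly lower, at 9.80, 9.57 and 9.72 in HU and 9.09, 9.15 and 9.05 in DT arrays (1.51-fold, adjusted p = 0.0112, and 0.0584 without HU1). Of 59 genes of amino acid metabolism Gls2 was the one called higher and Gamt the one called lower.

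The endoplasmic reticulum (ER) is where secreted proteins are folded. Of 66 measured genes of the unfolded protein response and ER chaperones 5 were called higher and none lower, with 44 above 0 and a median of 0.12. Pdia3, which encodes a disulfide isomerase and was named after its values were seen, was lower on a probe set that is not its brightest (-0.51, adjusted p = 0.0452). That call was lost under a chip lot block (adjusted p = 0.202) and when single DT or HU arrays were left out (up to 0.132). The median of the list was -0.07 within chip lot 1, 0.03 under a chip lot block and 0.02 under a scan day block, and the 5 calls became 1 higher and 1 lower without DT1, 2 higher without HU1, 1 higher without HU2, 3 higher without DT2, DT3 or HU3, and 1 and 0 under a chip lot block and a scan day block. Trib3, a pseudokinase induced by the integrated stress response, was at 7.13, 7.34 and 7.16 in HU, 8.15, 8.52 and 8.503 in DT and 7.64, 7.85 and 7.61 in DU arrays. The DU arrays lay between the others on this probe set, and the rise in DT was 2.27-fold (adjusted p = 0.00113, and 0.0170 under a chip lot block). Another probe set of Trib3 was called in DT vs. HU alone (log2 fold change 0.50, adjusted p = 0.0145). A further one did not pass (0.51, adjusted p = 0.105), with a DU mean of 6.74 below the HU mean of 6.83. Srp9, a subunit of the signal recognition particle, was 1.77-fold higher (adjusted p = 0.0227), Selenos, a selenoprotein of ER-associated degradation, 1.67-fold (0.0469, and 0.15 on the log2 scale instead of 0.74 under a scan day block) and Dnajc3, a cochaperone that restrains the kinase Perk, 1.31-fold (0.0231). The fifth gene, Ostc, a subunit of the oligosaccharyltransferase that was named after its values were seen, was 1.40-fold higher (0.0493). Srp9 was lost without DT1 or HU2, Dnajc3 without DT1 or any HU array, and Selenos whichever DT or HU array was left out. Ostc was lost at least without DT1, DT2, DT3, HU1 or HU2, and under a chip lot block. Xbp1, a transcription factor of this response, was at 11.84, 11.81 and 11.74 in HU and 12.06, 12.06 and 11.99 in DT arrays, and its log2 fold change of 0.24 did not pass (adjusted p = 0.146). Sel1l, a partner of the ER-associated degradation ligase, had 0.13 (adjusted p = 0.579, with the sign turned to -0.05 under a chip lot block and -0.15 under a scan day block).

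Of 57 antioxidant and glutathione genes 2 were called higher and 2 lower, with a median of 0.00. Gpx1, which encodes glutathione peroxidase 1, was at 10.23, 9.52 and 9.92 in HU, 12.09, 11.80 and 11.87 in DT and 11.88, 11.65 and 11.91 in DU arrays. DT and DU arrays overlapped and stood above all HU arrays, and DT was 4.09-fold over HU (2.03 on the log2 scale, adjusted p = 0.00151, and 0.0270 under a chip lot block, but 1.07 and 0.695 under a scan day block). Gstk1, a mitochondrial and peroxisomal glutathione transferase, was 1.49-fold higher (adjusted p = 0.0404, lost without DT1 or any HU array) and remained different from DU vs. HU. Gstm5, a glutathione transferase (1.48-fold, adjusted p = 0.0148, lost without HU1 or HU3), and Selenow, a small selenoprotein (1.48-fold, adjusted p = 0.0435, lost without DT1, DT2 or any HU array), were lower. Of 41 carbonyl, aldo-keto and xenobiotic enzymes, 1 was called higher and 2 lower. Aldh1a1, a retinaldehyde dehydrogenase, was at 9.88 to 10.22 in HU and 9.03 to 9.41 in DT arrays (1.82-fold lower, adjusted p = 0.00656, and 0.0848 under a chip lot block). Maob, which encodes monoamine oxidase B, was 1.77-fold lower (adjusted p = 0.00350), and Aldh3a2, a fatty aldehyde dehydrogenase, 1.82-fold higher (adjusted p = 0.0301, lost without DT1 or any HU array). The 2 lower genes were also called lower in DU vs. HU.

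Fatty acid oxidation and ketogenesis had 50 genes measured, of which none was called in DT vs. HU (median -0.06), whereas 20 were called higher and 1 lower in DU vs. HU (median 0.25), where 3.58% of all genes were called. Of 44 genes of glucose metabolism Slc2a2 was the one called, of 17 genes of coenzyme A synthesis none, and of 61 citrate cycle and respiratory chain genes Ndufs3, a subunit of complex I, was called (1.60-fold higher, adjusted p = 0.0127, lost without HU1 or HU2). Insig1, which holds back cholesterol and fatty acid synthesis, was 1.63-fold higher (adjusted p = 0.0493, lost without DT1, DT2, HU1 or HU2, and 0.07 on the log2 scale instead of 0.71 under a scan day block), and Lpin3, a phosphatidate phosphatase, 1.39-fold (adjusted p = 0.0322, lost without DT2, DT3 or any HU array), both from a list of 32 fat synthesis genes. Isyna1, which makes inositol from glucose phosphate, was 1.46-fold higher (adjusted p = 0.0426, lost without DT1, DT3 or any HU array), and the zinc transporter gene Slc39a8 was 1.40-fold higher (adjusted p = 0.0259, lost without DT1, DT2 or any HU array).

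The collagen genes Col3a1 and Col1a2 were called lower in DT than in HU animals, with calls that depended on single arrays. Of 43 genes of stellate cells, fibroblasts and matrix 3 were called lower and 1 higher, with a median of -0.24, and under a chip lot or a scan day block none was called in either direction. Col3a1, which encodes collagen III, was at 9.0, 8.67 and 9.49 in HU and 7.16, 7.39 and 8.31 in DT arrays. DT3 lay nearly 1 log2 unit above DT1 and DT2, and the difference of 2.70-fold (-1.43 on the log2 scale, adjusted p = 0.0188, and -0.76 under a scan day block) did not pass under a chip lot block (adjusted p = 0.107) or without DT1 (0.0694), DT2 (0.0566), HU1 (0.0609) or HU3 (0.0712). Col1a2, of collagen I, was 1.94-fold lower (-0.96 on the log2 scale, adjusted p = 0.0385, lost without DT1, DT2 or any HU array, and -0.22 under a scan day block), while its second probe set did not pass (adjusted p = 0.249). Col1a1, the other gene of collagen I, was at 8.34, 8.34 and 8.42 in HU and 7.90, 7.56 and 8.11 in DT arrays and did not pass (-0.51, adjusted p = 0.0541). Postn, which encodes the matrix protein periostin, was 1.41-fold lower (adjusted p = 0.0327, lost without DT1, DT2 or any HU array). Lamb1, of the laminins of basement membranes, was higher, at 7.997, 8.10 and 7.88 in HU and 9.37, 8.98 and 9.08 in DT arrays (2.22-fold or 1.15 on the log2 scale, adjusted p = 0.0102, and 0.0851 under a chip lot block, with 0.54 under a scan day block). The number called lower was 12 without DT3, 1 without HU2 and 0 without DT1, DT2, HU1 or HU3, and the median was -0.49 within chip lot 1 but -0.01 under a scan day block. The mean of the 4 fibroblast markers was 7.98 to 8.30 in HU and 7.35 to 7.90 in DT arrays.

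Of 46 measured leukocyte genes, Cxcl9, which encodes a chemokine that attracts T cells, was the one called. It was at 7.17, 7.14 and 7.24 in HU and 6.87, 6.62 and 6.29 in DT arrays, lowest in DT3, and 1.51-fold lower (adjusted p = 0.0467, lost without DT2, DT3 or any HU array). The mean of the leukocyte list was 7.41, 7.22 and 7.67 in HU and 6.90, 7.11 and 7.58 in DT arrays, so that DT3 was the highest DT array and lay within the HU range. Its median log2 fold change was -0.19, and it was -0.65 within chip lot 1 and 0.13 under a scan day block, where the direction turned. The 3 macrophage markers had a mean of 7.86 to 8.20 in HU and 7.63 to 8.26 in DT arrays. The 3 lymphoid markers measured had 6.18 to 6.61 and 5.93 to 6.43, and the 2 erythrocyte markers 9.51 to 10.13 and 8.73 to 9.37. The part of these cells in the collagen and chemokine differences was not tested. None of 21 interferon-response, 19 endothelial, 15 adipocyte, 6 erythrocyte or 13 nerve genes was called.

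Cyclin D2 was lower in DT animals. Ccnd2, which encodes this cyclin that drives entry into the cell cycle, was at 9.95, 9.33 and 10.45 in HU, 8.11, 8.04 and 8.71 in DT and 9.25, 9.42 and 9.10 in DU arrays. DT arrays lay below all others, by 3.08-fold against HU (adjusted p = 0.00490), which passed under a chip lot block (-1.99, adjusted p = 0.00512), while DT vs. DU did not pass (adjusted p = 0.0784). Of 46 cell cycle genes Ccnd2 and Mcm4, a helicase subunit near background (1.31-fold lower, adjusted p = 0.0317, lost without DT1, DT2 or any HU array), were called. Ccnd1, of cyclin D1, passed on 1 of its 3 probe sets (-0.79, adjusted p = 0.0455) and not on the others (-0.53, adjusted p = 0.0542, and -0.39, adjusted p = 0.123). Pcna, which encodes the sliding clamp of DNA replication, did not pass (log2 fold change 0.01, adjusted p = 0.978).

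Mug1, which encodes the plasma protease inhibitor murinoglobulin, was at 6.39, 5.62 and 6.68 in HU, at 3.96, 4.16 and 4.08 in DT and at 3.98, 4.14 and 4.28 in DU arrays. DT and DU arrays were at the level of the dimmest probe sets, the 5th percentile of an array being 4.30 to 4.36 in DT and HU arrays, so that the fold of 4.48 is limited by background (adjusted p = 0.000241). It was the one of the 209 probe sets that was also called in HT vs. HU, with an HT mean of 4.54. Of 26 plasma protease inhibitor and acute phase genes Itih4, an inhibitor heavy chain, was the other one called (1.46-fold lower, adjusted p = 0.0456, lost without DT2, DT3 or any HU array).

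**Figure D4:**
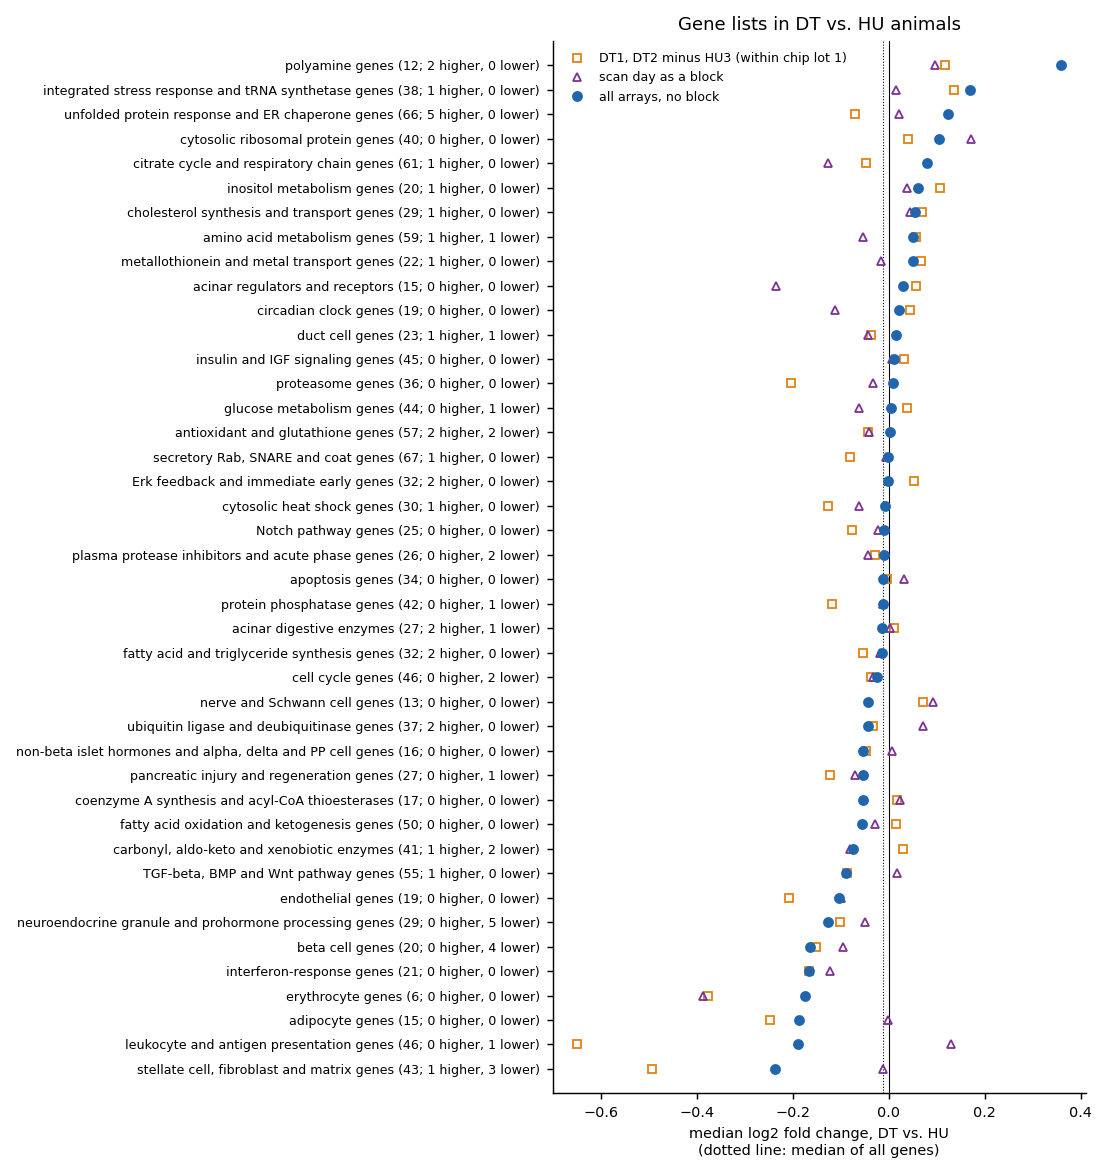
Median log2 fold change in DT vs. HU of 42 gene lists (filled circles), with the number of genes measured and called in each label. Squares give the median difference within chip lot 1 and triangles that under a scan day block. The 3 medians lie far apart for leukocyte and matrix genes and close together for beta cell genes, most of which were not called. Of the called beta cell genes, Ins2, Ins1 and Iapp differed less under a scan day block (-2.11, -1.25 and -0.44 against -3.25, -2.11 and -1.77). Slc2a2 did not (-1.88 against -1.87).

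Among the lists with no call in DT vs. HU on the brightest probe sets were those of proteasome (36 genes), Notch (25), insulin and IGF signaling (45), apoptosis (34), clock (19) and ribosomal protein genes (40, median 0.11). With the probe set of smallest p per gene, 1 gene of the insulin and IGF signaling list was called lower. St13, a cochaperone of Hsp70, was called among 30 heat shock genes (1.65-fold higher, adjusted p = 0.0127, lost without DT1 or HU3). A second probe set of St13 did not pass (1.1-fold, adjusted p = 0.462). Bet1, a SNARE of the ER to Golgi transport, was called among 67 secretory genes (1.35-fold higher, adjusted p = 0.0428, lost whichever DT or HU array was left out, and 1.49-fold at 0.0112 on a second probe set). Rnf128, a ubiquitin ligase, was called beside Herc4 among 37 ubiquitin ligase and deubiquitinase genes (1.44-fold higher, adjusted p = 0.0251, lost without DT2, DT3 or any HU array). Rab10, a GTPase of the secretory list named after its values were seen, was lower on a probe set that is not its brightest (-0.46, adjusted p = 0.0376). That call was lost under a chip lot block (adjusted p = 0.147) and when single DT or HU arrays were left out (up to 0.114). Ppp1r1a, an inhibitor of protein phosphatase 1, was the one called of 42 phosphatase genes (1.74-fold lower, adjusted p = 0.0493, lost without any DT array, HU2 or HU3). Some genes that the paper names are not given above, and none of these passed. Pebp1 (Rkip) was at 10.15, 9.98 and 10.28 in HU and at 9.87, 9.61 and 9.82 in DT arrays (log2 fold change -0.37, adjusted p = 0.0683), with a DU mean of 10.44. Fgf13 had 0.50 (adjusted p = 0.260), Sostdc1 (Usag-1) 0.52 (0.0629) and Nupr1 0.65 (0.117).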

How the data were processed

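Pooled RNA from rat pancreas was hybridised to 12 RAE230-A arrays. The authors made the deposited log2 values by RMA (background adjustment, quantile normalization, summary per probe set) in the affy package, whose version was not given in the sources used here, and the log2 values were used as deposited. Arrays have no read depth, and their number limits the precision. Control probe sets (57 of 15923) were left out. Scan day and chip lot came from the deposited array records and were coded. A mean per group was fitted to 15866 probe sets in all 12 arrays with limma 3.58.1 in R 4.3.3. Contrasts were tested by its moderated test with Benjamini-Hochberg adjustment within each contrast, and called at an adjusted p under 0.05. A lost call in the text is one whose adjusted p was 0.05 or higher. The fit was tested on simulated data with independent noise and no scan day or chip lot effect, so that test does not bear on either. One array left out leaves 2 in its group, whose spread is shared with the others.

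Symbols came from GEO's platform annotation, updated to RefSeq (GRCr8): 12783 probe sets had 1 symbol (12748 found in RefSeq), 312 several and 2771 none. The latter were counted but not named. Lists took the brightest probe set per gene. Listed genes matched through synonyms, except where RefSeq gives the synonym to another gene. Named genes were the 15 largest rises and 15 largest falls among called probe sets whose arrays do not overlap, the 10 largest that remained and the 10 largest newly different, up to 4 genes per list with the smallest adjusted p, and genes that the paper names. Members, lists and rules were chosen with earlier results of these data known, so a list's count is a description. Alternatives were other normalizations, filters, blocks and criteria and leaving out arrays. Other assays of the study were not analysed here.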

Additional observations from a re-analysis of the deposited data

How the results depend on the processing

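The 209 calls in DT vs. HU, 87 that remained different and 35 newly different fell to 3, 2 and 1 under a scan day block and to 41, 21 and 10 at an adjusted p under 0.01. Under a random scan day block they were 97, 45 and 27, and under a chip lot block 74, 37 and 25. Fitting DT and HU arrays alone gave 45. Leaving out 1 array at a time gave 73 to 306 calls, 33 to 115 that remained different and 15 to 59 newly different. The study's wording of newly different (DT vs. DU called, DU vs. HU not, and a minimum fold from HU) gave 56. The other settings, namely quantile normalization, median centring, a filter on dim probe sets, trend and robust, B above 0, a minimum fold and fitting HU, DU and DT arrays alone, kept each count within 1.5 times. The replicate number as a replicate block gave 227, 110 and 37, with 176 of the 209 shared. Same-numbered DT and HU arrays deviated together at 0.003, 0.31 and 0.31, and differently numbered ones at -0.36 to 0.13. The number was not taken as a pairing in the main fit, and a shared factor behind it was not tested. No called gene among those named changed sign. Uncalled ones did: Pcna ranged from -0.14 (without DT3) over -0.08 (without HU2) to 0.0908 with 1 array left out, Pdx1 was at 0.0736 under a scan day block, and Sel1l at -0.153 under a scan day and -0.0474 under a chip lot block. Of 57 called genes named by the rules above, 24 stayed called in every fit without 1 DT or HU array. Genes named after their values were seen are not among these 57. Dim signals such as Mug1 limit folds. The causes were not tested.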

Other observations

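Several called genes outside the lists were named after their values were seen, among them 6 whose products are found in lysosomes. No list of lysosomal genes was drawn up, so their values say nothing of that group. Of all 209 calls, 44 held in every fit without 1 DT or HU array. Apart from Igf1, those fits are not given for the genes of this section, whose calls may depend on single arrays. Man2b1, a lysosomal mannosidase, was at 9.28, 9.23 and 9.57 in HU and at 8.33, 8.41 and 8.79 in DT arrays, with a DU mean of 8.11 (1.80-fold lower in DT vs. HU, adjusted p = 0.00439). Aga, which encodes aspartylglucosaminidase, was 1.62-fold lower (adjusted p = 0.0276). The fucosidase genes Fuca1 and Fuca2 were 1.42-fold (adjusted p = 0.0249) and 1.58-fold lower (adjusted p = 0.0112). Lgmn, which encodes the protease legumain, was newly different, at 8.48, 8.46 and 8.30 in HU and at 9.13, 9.02 and 8.92 in DT arrays (1.53-fold higher, adjusted p = 0.00584), and Dram1, a lysosomal membrane protein linked to autophagy, was 1.504-fold higher (adjusted p = 0.00781). Under a chip lot block Man2b1, Fuca2, Lgmn and Dram1 passed (adjusted p = 0.0121, 0.0200, 0.0196 and 0.0347), and Aga (0.180) and Fuca1 (0.135) did not.

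Selenoh, a selenoprotein gene named in the same way, was at 8.40, 8.03 and 7.89 in HU and at 9.32, 8.83 and 9.26 in DT arrays (2.04-fold higher, adjusted p = 0.0111). Selenon, another, was 1.45-fold lower (adjusted p = 0.0337). No list of selenoproteins was drawn up. Igf1, which encodes a growth factor, was at 7.67, 7.95 and 8.23 in HU and 7.30, 6.90 and 7.32 in DT arrays on the probe set called (1.71-fold lower, adjusted p = 0.0172). This call was lost under a chip lot block (adjusted p = 0.0573) and when single DT or HU arrays were left out (up to 0.0645). Azin1, which relieves the inhibition of ornithine decarboxylase, was 1.41-fold higher on the probe set called (adjusted p = 0.0233). Neither of these probe sets was the brightest of its gene. Acy3, an aminoacylase, was newly different, with HU arrays at 7.65, 7.76 and 7.36 and DT arrays at 8.48, 8.42 and 8.47 (1.83-fold higher, adjusted p = 0.00151).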
